A study of Mus musculus with 12 samples.

Results

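The 42 genes described here encode proteins of the cell division cycle. They were taken by symbol from a table of 24421 gene symbols: 21 act in DNA replication and the entry into it, and 21 act in mitosis. All 42 had enough counts to be tested, among 12981 tested genes. The cells were sorted from the tibialis anterior muscle of mice on day 5 after notexin, a snake venom toxin that kills muscle fibres. The mice carried either 1 functional and 1 null allele of Ifngr1 (wt/null) or only null alleles (null/null), so the controls also lacked 1 functional allele. Interferon gamma binds its receptor through the chain that Ifngr1 encodes. Mice of each genotype were injected daily with an antibody that neutralizes TNF (anti-TNF) or with an isotype control antibody, which gave 4 groups of 3 libraries. The sorted cells were negative for propidium iodide, positive for CD45 and CD11B and negative for LY6G/SIGLECF, and are labelled macrophages. The labels do not give the age or strain, or say which tissues lacked the receptor. Whether each library came from its own mouse was not stated either, so p-values measure only the spread between these libraries.

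A cell that commits to division first licenses replication origins by loading the MCM2-7 helicase, makes deoxynucleotides, and copies its DNA while copying DNA methylation onto the new strands. It then condenses its chromosomes, attaches them to the spindle under control of the spindle checkpoint, and degrades cyclins to leave mitosis. Genes of the first phase are classic targets of E2F transcription factors, and genes of the second phase are typically controlled through the cell cycle homology region (CHR) and CCAAT boxes bound by NF-Y. Macrophages that accumulate in injured muscle arise from blood monocytes and can divide in the tissue.

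Promoter motifs, which the choice of members by symbol did not use, differed in frequency between the replication and the mitosis genes, given here as counts with no test. Matched by symbol to RefSeq windows of 250 bases before to 50 bases after the start (build GRCm38.p6), 35 of the 42 members had a window, 18 replication and 17 mitosis genes. No window was used for Aurkb, Ccna2, Ccne2, Foxm1, Gins2, Mcm4 and Tpx2. An E2F motif, searched as the letters TTCCCGC, the letters TTGGCGC, the letters TTCGCGC or the letters TTGCCGC on both strands, occurred in 10 of 18 replication genes (55.6%) and 3 of 17 mitosis genes (17.6%). The share was 10.9% among all 27025 genes of the promoter table and 19.1% among the 9911 tested genes with a window. A CHR motif, the letters TTTGAA or the letters TTTAAA on either strand, occurred in 8 of 18 replication genes (44.4%) and 15 of 17 mitosis genes (88.2%), against 30.6% of all genes and 22.5% of tested genes. CCAAT on either strand occurred in 11 replication genes (61.1%) and 15 mitosis genes (88.2%), against 41.1% of all genes. Both CHR and CCAAT were in 14 mitosis genes (82.4%), 6 replication genes (33.3%) and 13.4% of all genes. A gene with several windows was counted if any of them matched. In only the bases before the start, E2F matched 44.4% of replication genes, 17.6% of mitosis genes and 9.01% of all genes. There CHR and CCAAT together matched 22.2% of replication genes, 64.7% of mitosis genes and 11.2% of all genes. These are matches of short letters and not measured sites, and TTGGCGC can overlap the reverse complement of CCAAT, as it did in Mcm7 and Ccnb1.

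The 150 bases before the start are shown for the replication and mitosis genes with the smallest p for the antibody, 3 of each, and for Mcm6, added after its matches were counted because its E2F matches are paired. Capitals mark E2F, CHR or CCAAT matches on either strand, so that ATTGG is the reverse complement of CCAAT and GCGCGAA that of TTCGCGC. Dnmt1 had 3 windows and Prc1 had 2, and the window at the start of the principal transcript is shown for each. No capitals appear for Dnmt1 and Cdk6, whose stretches hold none of these letters. The Dnmt1 windows not shown did hold matches. That at chr9:20952574-20952873 held 3 E2F and 3 CCAAT matches, through which Dnmt1 entered the E2F count above. That at chr9:20959839-20960138 held 1 CHR and 5 CCAAT matches.
Dnmt1: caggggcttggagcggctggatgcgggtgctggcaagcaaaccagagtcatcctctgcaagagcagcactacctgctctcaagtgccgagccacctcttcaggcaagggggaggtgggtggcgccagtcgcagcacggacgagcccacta
Cdk6: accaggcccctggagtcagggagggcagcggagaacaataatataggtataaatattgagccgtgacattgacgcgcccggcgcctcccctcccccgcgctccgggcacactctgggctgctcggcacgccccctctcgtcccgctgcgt
Mcm2: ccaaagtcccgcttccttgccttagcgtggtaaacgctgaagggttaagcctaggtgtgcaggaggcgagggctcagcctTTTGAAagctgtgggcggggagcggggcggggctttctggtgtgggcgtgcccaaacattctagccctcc
Mcm6: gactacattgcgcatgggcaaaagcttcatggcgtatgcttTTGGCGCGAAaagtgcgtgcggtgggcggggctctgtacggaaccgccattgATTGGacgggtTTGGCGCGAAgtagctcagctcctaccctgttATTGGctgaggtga
Plk1: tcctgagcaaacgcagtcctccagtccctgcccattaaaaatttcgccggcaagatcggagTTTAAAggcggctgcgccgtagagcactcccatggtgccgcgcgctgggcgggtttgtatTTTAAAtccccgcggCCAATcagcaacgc
Mki67: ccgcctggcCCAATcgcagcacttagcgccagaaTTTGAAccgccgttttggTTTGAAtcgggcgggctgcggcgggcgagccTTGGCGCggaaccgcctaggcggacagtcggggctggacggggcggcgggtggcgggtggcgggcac
Prc1: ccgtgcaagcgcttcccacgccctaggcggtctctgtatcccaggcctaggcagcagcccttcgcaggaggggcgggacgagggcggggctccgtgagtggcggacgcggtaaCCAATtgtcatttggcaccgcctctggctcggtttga
The stretches lie at chr9:20952980-20953129, minus strand (Dnmt1), chr5:3343743-3343892, plus strand (Cdk6), chr6:88898781-88898930, minus strand (Mcm2) and chr1:128359706-128359855, minus strand (Mcm6). Those of the mitosis genes lie at chr7:122159285-122159434, plus strand (Plk1), chr7:135716380-135716529, minus strand (Mki67) and chr7:80294301-80294450, plus strand (Prc1). In Mcm6 each run TTGGCGCGAA holds an E2F match on each strand. Plk1 and Mki67 have a pair of CHR matches and a CCAAT box within the stretch shown.

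Levels are given as counts per M counts (CPM, where M is mega) after TMM scaling, and libraries held 23.2 to 29.9 M counts. Ifngr1 was at 226 to 250 CPM in the 6 wt/null libraries and at 83.3 to 119 CPM in the 6 null/null libraries, with no overlap. The 119 CPM was that of null/null anti-TNF replicate 1, and the other null/null libraries were at 83.3 to 90.2 CPM. Macrophage genes were high in each library: Csf1r, the CSF1 receptor, was at 3157 to 4061 CPM and Adgre1 (F4/80) at 1368 to 1783 CPM. The 12 T and NK cell markers summed to 99.0 to 205 CPM, of which Cd4 made 92.3 to 195 CPM, while the defining T cell gene Cd3e reached at most 0.72 CPM. The 8 muscle markers summed to 63.9 to 114 CPM, with Acta1 at 33.4 to 65.0 CPM and the stem cell gene Pax7 at up to 1.93 CPM. The 7 neutrophil markers in the table summed to 44.1 CPM in null/null isotype replicate 1, the highest library for 6 replication genes, and to 1.70 to 6.44 CPM in the others. A pair of anti-TNF libraries stood apart, wt/null anti-TNF replicate 2 (titled 40C1) and null/null anti-TNF replicate 1 (titled 40C2). The 8 dendritic cell markers summed to 337 CPM in 40C1 and 286 CPM in 40C2, against 83.5 to 142 CPM in the other 10 libraries. The 6 myeloid progenitor markers summed to 26.1 and 21.7 CPM against 7.40 to 13.0 CPM. Of these, Kit was at 21.2 and 14.2 CPM against 3.21 to 7.88 CPM. In any library Cd34 reached at most 6.81, Prtn3 1.52, Ctsg 0.31, Elane 0.27 and Mpo 0.12 CPM. The 8 osteoclast-type genes summed to 524 and 621 CPM against 1134 to 3965 CPM, and the 6 fibroblast genes to 291 and 185 CPM against 431 to 1134 CPM. The 6 endothelial markers summed to 50.9 and 45.3 CPM against 19.5 to 39.2 CPM. The T and NK cell sum, mostly Cd4, was 188 and 135 CPM against 99.0 to 205 CPM. Within this list Cd4, Cd3e and Klrb1c were highest in other libraries. The rest of the list was highest in 40C1, with Il2rb at 11.5, Cd8a at 5.65 and Gzma at 5.24 CPM. Cd3e alone was at 0.70 and 0.72 CPM against 0 to 0.33 CPM, from at most 19 counts. The 10 macrophage and monocyte markers summed to 28092 and 26379 CPM against 27103 to 32756 CPM. The part of these differences in the results below was not tested, and the main results are given with and without 40C1 and 40C2.

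The mitosis genes varied more between libraries than the replication genes. The highest library exceeded the lowest by a median of 1.95-fold over the 21 replication genes and 2.85-fold over the 21 mitosis genes, with medians of 1.53-fold and 1.93-fold without 40C1 and 40C2. The coefficient of variation over the 12 libraries had a median of 19.2% for replication and 28.4% for mitosis genes, against 13.3% for all tested genes. Without the pair the medians were 12.9% and 20.6%, and that of all tested genes was not computed. Counting error was smaller, with median coefficients of 3.58% and 5.83%. Libraries 40C1 and 40C2 were the lowest pair in 19 of 21 mitosis genes and 11 of 21 replication genes, and in 12.5% of all tested genes. At the other end, wt/null isotype replicate 3 was the highest library in 19 of 21 mitosis genes and 5 of 21 replication genes. The share of all tested genes that are highest in a given library was not computed. The span ran from 1.17-fold for Pcna, the sliding clamp of DNA polymerases, to 4.41-fold for Bub1, a checkpoint kinase.

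**Figure D1:**
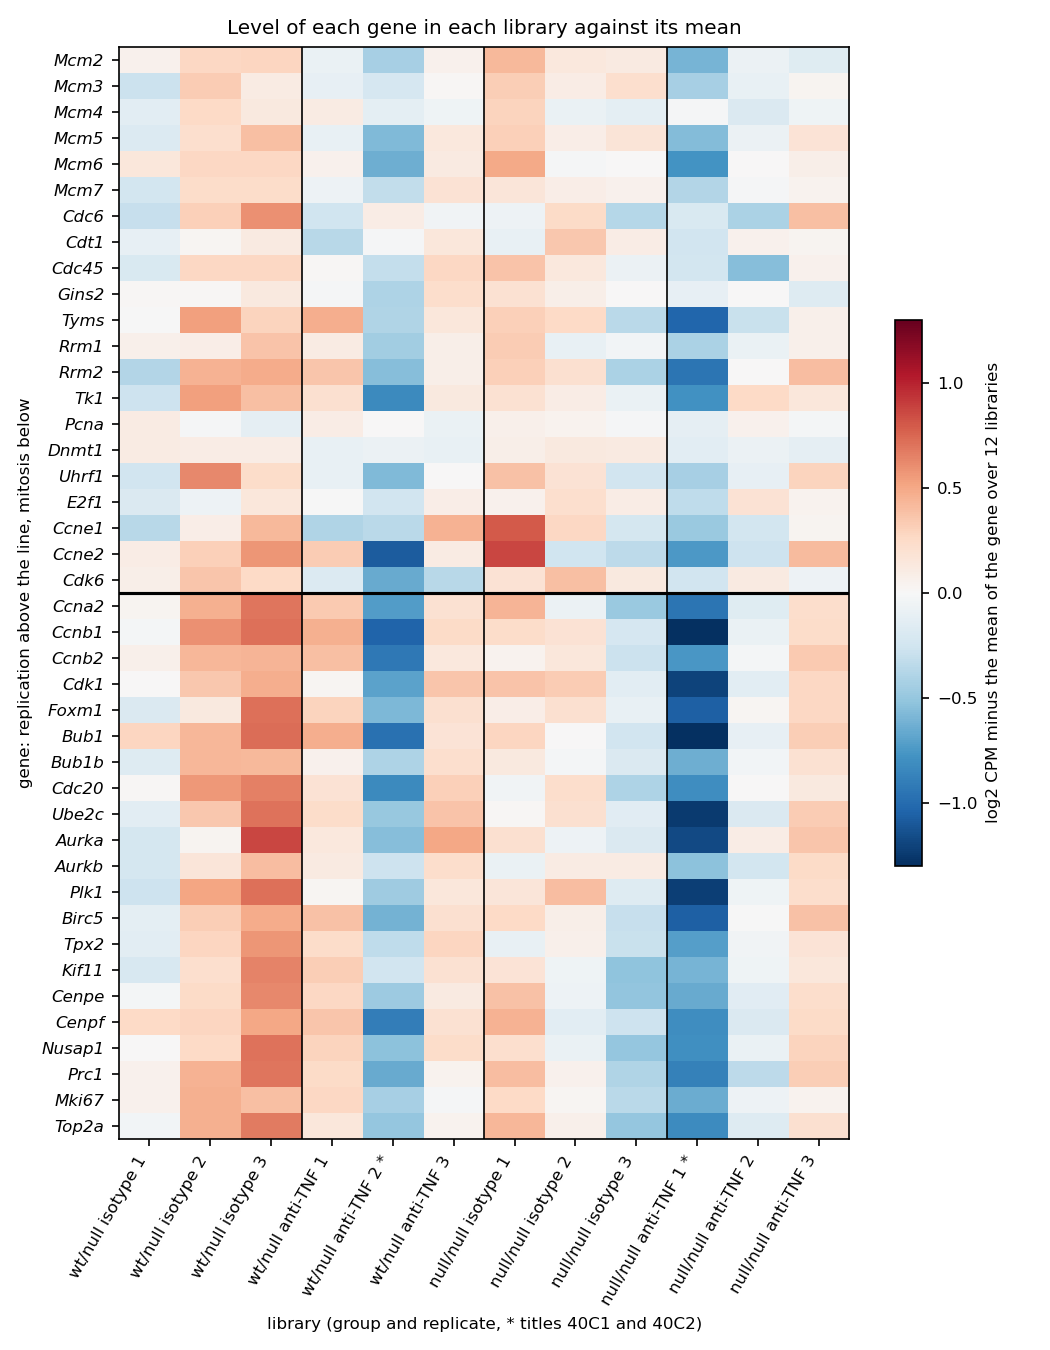
Level of each of the 42 genes (rows) in each of the 12 libraries (columns), as log2 CPM minus the mean of that gene over the libraries; red is above and blue below that mean. The columns of 40C1 and 40C2, marked with asterisks, are blue for nearly all mitosis genes below the line, while Pcna and Dnmt1 stay pale throughout.

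Averaged over its 21 genes, the replication level was 4.16, 4.51 and 4.54 log2 CPM under isotype and 4.27, 3.88 and 4.34 under anti-TNF in wt/null. In null/null it was 4.55, 4.39 and 4.20 under isotype and 3.83, 4.18 and 4.35 under anti-TNF. The lowest values, 3.88 and 3.83, were those of 40C1 and 40C2, and the groups overlapped. The mitosis level was 3.67, 4.07 and 4.33 log2 CPM under isotype and 3.97, 3.11 and 3.93 under anti-TNF in wt/null, and 3.92, 3.79 and 3.43 under isotype and 2.80, 3.62 and 3.96 under anti-TNF in null/null. Again 40C1 (3.11) and 40C2 (2.80) were lowest, by a wider margin, and the groups overlapped. Each level is a mean over genes of different length and serves only to compare libraries. Replication minus mitosis was 0.38 ± 0.15 log2 units under isotype and 0.49 ± 0.24 under anti-TNF in wt/null (mean ± SD over 3 libraries). In null/null it was 0.67 ± 0.10 under isotype and 0.66 ± 0.33 under anti-TNF. Under isotype the difference was 0.49, 0.44 and 0.21 in the wt/null libraries and 0.63, 0.60 and 0.78 in the null/null libraries, with no overlap, and under anti-TNF the genotypes overlapped. The separation of 3 from 3 libraries was not tested, and the members were chosen with earlier results of these data known. With 40C1 and 40C2 left out, the anti-TNF means were 0.36 ± 0.08 in wt/null and 0.47 ± 0.13 in null/null (n = 2 each). In these bulk samples, fewer dividing cells and less of these transcripts per cell cannot be told apart.

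**Figure D2:**
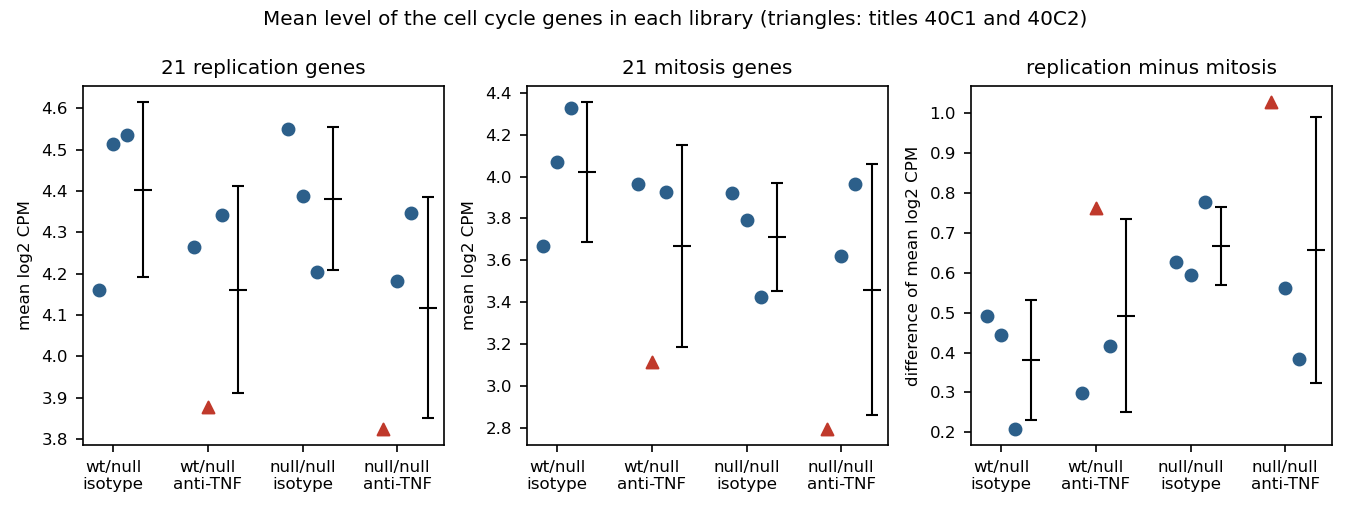
Mean log2 CPM over the 21 replication genes (left), the 21 mitosis genes (middle) and their difference (right) in each library by group; black bars show the group mean ± SD (n = 3). The triangles, 40C1 and 40C2, are the lowest points for both levels and the highest of their groups for the difference.

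The first comparison asked whether neutralizing TNF altered the level of cell cycle genes. Averaged over genotype, the estimates were below 0 for all 42 genes, with a median log2 fold change of -0.24 over the replication genes and -0.26 over the mitosis genes. Of all tested genes 48.4% had an estimate below 0, with a median of 0.01. No member passed the test (edgeR quasi-likelihood, Benjamini-Hochberg adjusted p below 0.05), and percent called was 0% over all tested genes. DESeq2 called 6 genes, among them 1 member, Dnmt1, and limma voom called 0. At an unadjusted p below 0.05, edgeR had 4 replication genes and 0 mitosis genes lower, against 3.24% of all tested genes lower and 4.08% higher. The genes share the same 12 libraries, so 42 estimates on the same side are not 42 separate observations. Leaving the pair out, 3 replication genes, Dnmt1, Cdk6 and Mcm2, had an unadjusted p below 0.05, against 1.52% of all tested genes lower, and edgeR again called 0 genes. The mitosis estimates rested on 40C1 and 40C2: without them 12 of 21 mitosis genes were below 0, with a median of -0.02, against 17 of 21 replication genes with a median of -0.11. Both are anti-TNF libraries and the lowest pair in 19 of 21 mitosis genes. Leaving them out therefore raises the estimates of those genes by construction. With limma voom, which weights libraries by quality, the medians were -0.15 for replication and -0.13 for mitosis genes.

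**Figure D3:**
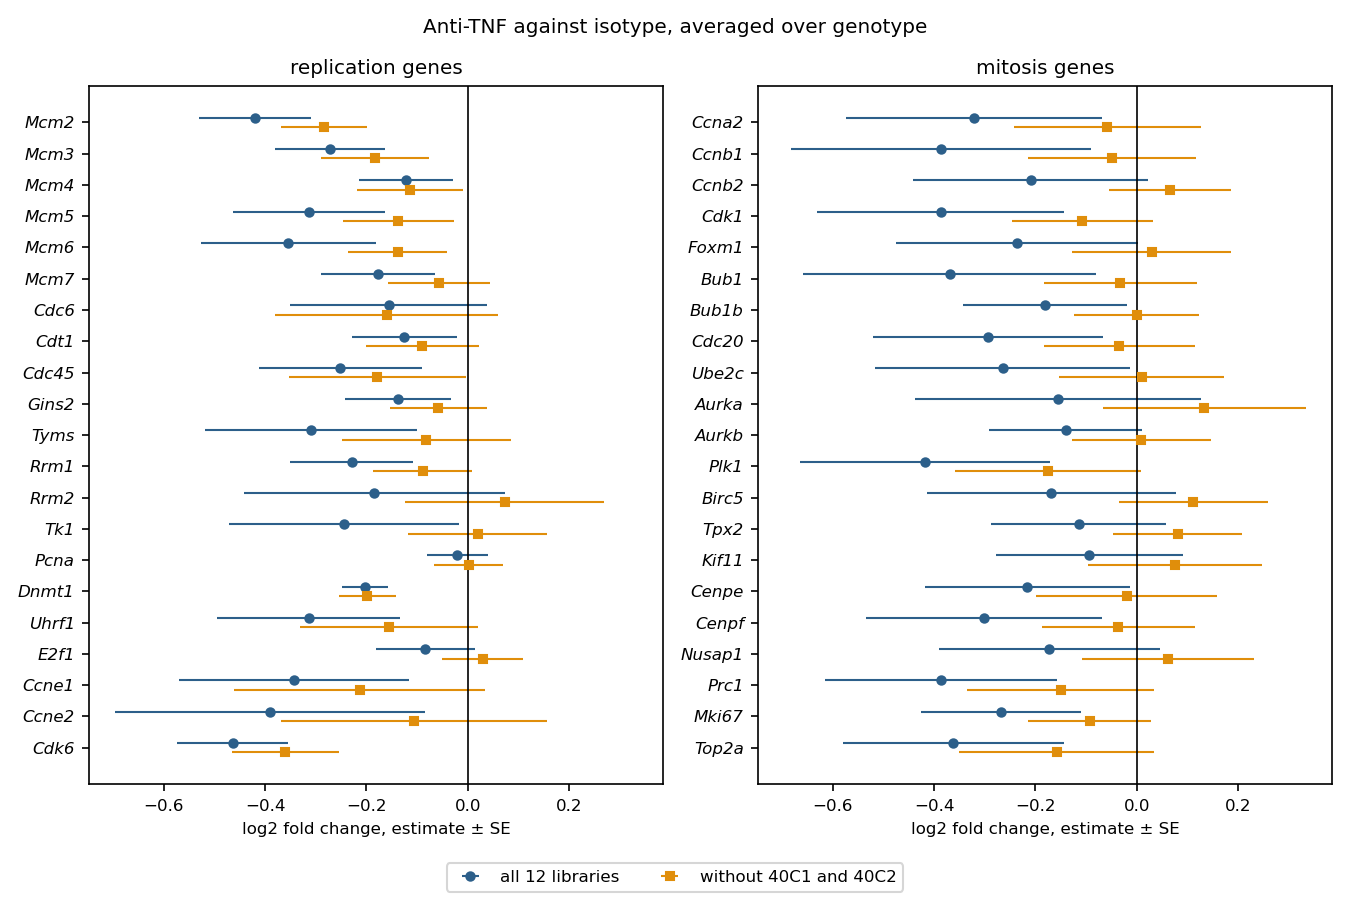
Log2 fold change of anti-TNF against isotype, averaged over genotype, for each gene, with its standard error, from all 12 libraries (circles) and without 40C1 and 40C2 (squares). The mitosis genes move toward 0 without the pair, to between -0.18 and 0.13, while Cdk6 goes from -0.46 to -0.36, Mcm2 from -0.42 to -0.28, and Dnmt1 stays at -0.20.

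Dnmt1, the methyltransferase that copies DNA methylation onto newly made strands, gave the smallest p of the members. It was at 87.7, 86.9 and 86.9 under isotype and 76.4, 77.1 and 76.2 under anti-TNF in wt/null, and at 85.9, 88.9 and 88.4 under isotype and 74.1, 77.1 and 75.3 under anti-TNF in null/null. The 6 isotype libraries, at 85.9 to 88.9 CPM, lay above the 6 anti-TNF libraries, at 74.1 to 77.1 CPM, in both genotypes. The SD within groups was 0.45 to 1.63 CPM, at group means of 75.5 to 87.7 CPM. Counting error for Dnmt1 has a coefficient of 2.17%, so libraries of a group lay closer together than counting alone gives on average. Library 40C2 was the lowest at 74.1 CPM, and 40C1, at 77.1 CPM, was among the highest anti-TNF libraries. The log2 fold change was -0.20 ± 0.05 (SE), with a 95% interval of -0.30 to -0.10 (edgeR unadjusted p = 0.00075, adjusted p = 0.66). DESeq2 gave the same estimate with an adjusted p of 0.00673. Without 40C1 and 40C2 the estimate was -0.20 ± 0.06 (edgeR adjusted p = 1, DESeq2 adjusted p = 0.844), so the DESeq2 call was lost with fewer libraries while the size stayed.

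Mcm2, a subunit of the replicative helicase, was at 31.6, 36.5 and 36.8 under isotype and 28.5, 22.5 and 31.5 under anti-TNF in wt/null, and at 40.6, 33.3 and 32.9 under isotype and 19.9, 28.8 and 27.2 under anti-TNF in null/null. Here too the isotype libraries (31.6 to 40.6 CPM) lay above the anti-TNF libraries (19.9 to 31.5 CPM), narrowly, with 40C1 and 40C2 lowest. Such a separation of 6 from 6 libraries toward lower levels was seen for 2 replication genes, Dnmt1 and Mcm2, and 0 mitosis genes, against 0.27% of all tested genes. The estimate for Mcm2 was -0.42 ± 0.11 (edgeR adjusted p = 0.66) and -0.28 ± 0.09 without the pair (adjusted p = 1). Cdk6, a kinase that works with D cyclins in G1, was at 10.8, 13.2 and 12.3 under isotype and 9.04, 6.47 and 7.96 under anti-TNF in wt/null, and at 11.7, 13.5 and 11.2 under isotype and 8.60, 11.1 and 9.79 under anti-TNF in null/null. Within each genotype the anti-TNF libraries were all lower, narrowly in null/null, and across genotypes null/null anti-TNF replicate 2 (11.1 CPM) overlapped wt/null isotype replicate 1 (10.8 CPM). The Cdk6 estimate was -0.46 ± 0.11 (edgeR adjusted p = 0.66) and -0.36 ± 0.11 without 40C1 and 40C2 (adjusted p = 1). DESeq2 gave no adjusted p for Mcm2 and Cdk6, which fell under its own filter on mean counts.

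**Figure D4:**
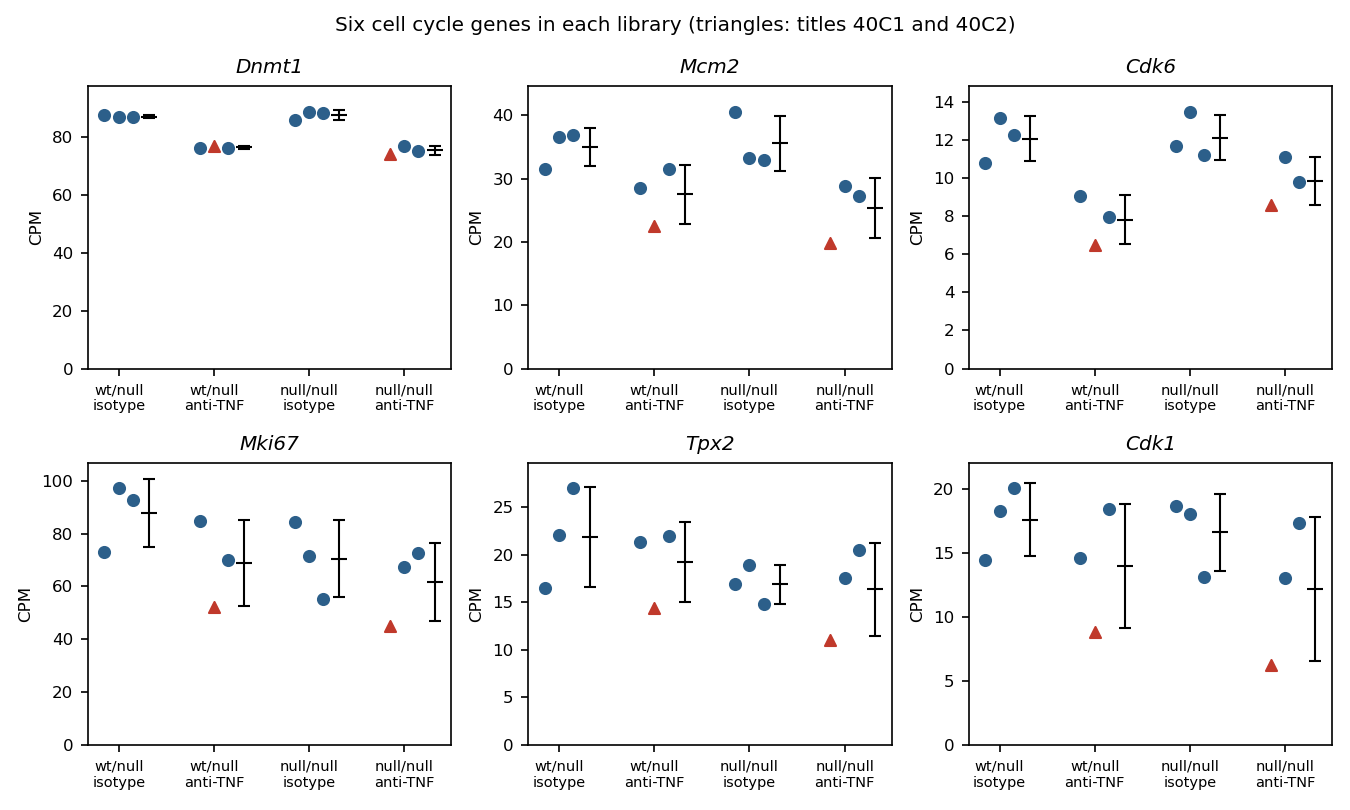
Levels in CPM of Dnmt1, Mcm2, Cdk6, Mki67, Tpx2 and Cdk1 in each library by group, with the group mean ± SD (n = 3) in black; axes start at 0. Dnmt1 separates the antibodies at 74.1 to 77.1 against 85.9 to 88.9 CPM, while the mitosis genes Mki67, Tpx2 and Cdk1 overlap between groups and are lowest in the triangles, 40C1 and 40C2, in the anti-TNF groups.

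The other licensing and helicase genes had estimates between -0.35 and -0.12, with 10 of 10 in this role below 0 with or without the pair (medians -0.21 and -0.14). Mcm6, another helicase subunit, was at 78.5, 85.3 and 85.4 under isotype and 73.9, 45.5 and 77.0 under anti-TNF in wt/null, and at 100, 70.3 and 71.0 under isotype and 41.3, 71.4 and 74.6 under anti-TNF in null/null. It was lowest in 40C1 and 40C2, and its estimate of -0.35 ± 0.17 was -0.14 ± 0.10 without them. Mcm3 was at 42.9, 65.8 and 56.4 under isotype and 48.4, 45.0 and 52.9 under anti-TNF in wt/null, and at 65.5, 56.0 and 60.8 under isotype and 38.7, 48.7 and 53.7 under anti-TNF in null/null. Its lowest library was 40C2, and the estimate was -0.27 ± 0.11 (edgeR adjusted p = 0.66), or -0.18 ± 0.11 without the pair. Cdc45, which joins MCM and GINS in the active helicase, was at 3.93, 5.47 and 5.47 under isotype and 4.58, 3.64 and 5.47 under anti-TNF in wt/null, and at 5.90, 4.97 and 4.29 under isotype and 3.83, 3.07 and 4.71 under anti-TNF in null/null. The groups overlapped, and the estimate was -0.25 ± 0.16, or -0.18 ± 0.17 without the pair. Mcm4, Mcm5, Mcm7, Gins2 and the loading factors Cdc6 and Cdt1 lay between -0.31 (Mcm5) and -0.12 (Mcm4).

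The genes of deoxynucleotide synthesis were low in the pair. Rrm1, the large subunit of ribonucleotide reductase, was at 47.5, 48.3 and 58.6 under isotype and 48.9, 33.1 and 47.9 under anti-TNF in wt/null, and at 57.1, 42.4 and 44.3 under isotype and 34.2, 42.7 and 47.4 under anti-TNF in null/null. Levels of 33.1 and 34.2 CPM in 40C1 and 40C2 were the lowest, and the estimate moved from -0.23 ± 0.12 to -0.09 ± 0.10 without them. Tyms, thymidylate synthase, was at 6.79, 9.88 and 8.35 under isotype and 9.49, 5.20 and 7.57 under anti-TNF in wt/null, and at 8.46, 8.17 and 5.32 under isotype and 3.30, 5.56 and 7.17 under anti-TNF in null/null, again lowest in 40C2 and 40C1. Its estimate moved from -0.31 ± 0.21 to -0.08 ± 0.17. For Rrm2, the small subunit, the estimates were -0.18 ± 0.26 and 0.07 ± 0.20, and for Tk1, thymidine kinase, -0.24 ± 0.23 and 0.02 ± 0.14.

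Pcna, the clamp, was the steadiest member at 113, 104 and 97.2 under isotype and 113, 106 and 99.6 under anti-TNF in wt/null, and at 110, 109 and 104 under isotype and 97.4, 110 and 103 under anti-TNF in null/null. Groups overlapped, and the antibody estimate of -0.02 ± 0.06 had a 95% interval of -0.15 to 0.11. Uhrf1, which recruits DNMT1 to hemimethylated DNA, had an estimate of -0.31 ± 0.18, and -0.16 ± 0.18 without the pair, with 9.01 and 9.93 CPM in 40C1 and 40C2. E2f1, the transcription factor of the G1/S transition, was at 28.8, 31.3 and 36.1 under isotype and 32.5, 27.5 and 34.7 under anti-TNF in wt/null, and at 34.1, 38.1 and 35.1 under isotype and 26.0, 37.3 and 33.9 under anti-TNF in null/null. The groups overlapped, and its estimate was -0.08 ± 0.10, or 0.03 ± 0.08 without the pair. Ccne1, cyclin E1, was at 2.78, 3.81 and 4.81 under isotype and 2.72, 2.78 and 4.93 under anti-TNF in wt/null, and at 6.27, 4.32 and 3.04 under isotype and 2.54, 3.03 and 3.68 under anti-TNF in null/null, with overlap and an estimate of -0.34 ± 0.23, or -0.21 ± 0.25 without the pair. Ccne2, cyclin E2, held the lowest count of all members, 29 counts in 1 library, and its estimate was -0.39 ± 0.31, or -0.11 ± 0.26 without the pair.

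Among the mitosis genes, the cyclins, Cdk1 and Foxm1 had estimates of -0.39 to -0.21 with all libraries and -0.11 to 0.07 without 40C1 and 40C2. Ccna2, cyclin A2, was at 19.2, 25.9 and 30.6 under isotype and 23.8, 11.3 and 21.5 under anti-TNF in wt/null, and at 25.6, 17.8 and 13.4 under isotype and 9.66, 16.8 and 22.0 under anti-TNF in null/null. Its highest library was wt/null isotype replicate 3 and its lowest were 40C2 and 40C1. Cdk1, the kinase that drives entry into mitosis, was at 14.5, 18.3 and 20.1 under isotype and 14.6, 8.84 and 18.4 under anti-TNF in wt/null, and at 18.6, 18 and 13.1 under isotype and 6.21, 13.1 and 17.3 under anti-TNF in null/null. It too was lowest in the pair, the groups overlapped, and the estimate was -0.39 ± 0.24 with all libraries (95% interval -0.93 to 0.15) and -0.11 ± 0.14 without the pair. Foxm1, a transcription factor of mitosis genes, had estimates of -0.24 ± 0.24 and 0.03 ± 0.16. Ccnb1 and Ccnb2, the B cyclins that activate Cdk1, stood at -0.39 ± 0.30 and -0.21 ± 0.23, and at -0.05 ± 0.16 and 0.07 ± 0.12 without the pair.

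The spindle checkpoint and anaphase ubiquitination genes were also low in the pair. Bub1b, the checkpoint protein BUBR1, was at 23.2, 35.2 and 34.9 under isotype and 27.1, 19.8 and 30.4 under anti-TNF in wt/null, and at 28.5, 25.6 and 22.9 under isotype and 16.8, 25.5 and 29.9 under anti-TNF in null/null. Cdc20, the activator of the anaphase-promoting complex that the checkpoint holds back, was at 10.8, 15.9 and 17.0 under isotype and 12.3, 6.02 and 13.4 under anti-TNF in wt/null, and at 10.5, 12.6 and 8.12 under isotype and 6.10, 10.8 and 11.8 under anti-TNF in null/null. Both were lowest in 40C1 and 40C2, and their estimates of -0.18 ± 0.16 and -0.29 ± 0.23 became 0.00 ± 0.12 and -0.03 ± 0.15 without them. Ube2c, the ubiquitin-conjugating enzyme of that complex, moved from -0.26 ± 0.25 to 0.01 ± 0.16, and Bub1 from -0.37 ± 0.29 to -0.03 ± 0.15.

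For the mitotic kinases and their partners, Tpx2, which activates Aurora A on spindle microtubules, was at 16.5, 22.0 and 27.0 under isotype and 21.3, 14.4 and 22.0 under anti-TNF in wt/null, and at 16.9, 18.9 and 14.8 under isotype and 11, 17.6 and 20.5 under anti-TNF in null/null. Plk1, Polo-like kinase 1, was at 7.07, 12.2 and 14.1 under isotype and 8.67, 6.18 and 9.43 under anti-TNF in wt/null, and at 9.52, 11.3 and 7.61 under isotype and 3.60, 8.21 and 10.0 under anti-TNF in null/null. Tpx2 and Plk1 were each lowest in 40C2 and highest in wt/null isotype replicate 3, with overlapping groups. The Tpx2 estimate was -0.11 ± 0.17 with all libraries and 0.08 ± 0.13 without the pair, and that of Plk1 was -0.42 ± 0.25 and -0.18 ± 0.18. Aurka and Aurkb, the Aurora kinases, and Birc5, the survivin subunit of the Aurora B complex, had estimates of -0.17 to -0.14 with all libraries and of 0.01 to 0.13 without the pair.

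Of the spindle, kinetochore and midzone genes, Prc1, which bundles microtubules in the midzone, was at 12.5, 16.5 and 19.4 under isotype and 14.3, 7.57 and 12.4 under anti-TNF in wt/null, and at 15.8, 12.5 and 9.13 under isotype and 6.48, 9.49 and 15.0 under anti-TNF in null/null. Kif11, the motor that separates spindle poles, was at 9.97, 13.5 and 18.1 under isotype and 14.4, 9.70 and 13.3 under anti-TNF in wt/null, and at 13.1, 11.1 and 8.02 under isotype and 7.58, 11.1 and 12.8 under anti-TNF in null/null. Nusap1, a microtubule-binding protein of the spindle, was at 7.63, 9.11 and 12.4 under isotype and 9.34, 5.24 and 9.01 under anti-TNF in wt/null, and at 8.87, 7.17 and 5.36 under isotype and 4.36, 7.16 and 9.30 under anti-TNF in null/null. All of them were highest in wt/null isotype replicate 3 and lowest in 40C2, and the groups overlapped. The antibody estimates were -0.39 ± 0.23 for Prc1, -0.09 ± 0.19 for Kif11 and -0.17 ± 0.22 for Nusap1, and without the pair -0.15 ± 0.18, 0.08 ± 0.17 and 0.06 ± 0.17. Cenpe and Cenpf, proteins of the outer kinetochore, had estimates of -0.22 ± 0.20 and -0.30 ± 0.23, and of -0.02 ± 0.18 and -0.04 ± 0.15 without the pair. Mki67, the proliferation antigen that coats mitotic chromosomes, was at 73.0, 97.2 and 92.7 under isotype and 84.7, 52.1 and 69.8 under anti-TNF in wt/null, and at 84.5, 71.6 and 55.3 under isotype and 45.0, 67.5 and 72.8 under anti-TNF in null/null, with 52.1 and 45.0 CPM in 40C1 and 40C2. Its estimate was -0.27 ± 0.16, or -0.09 ± 0.12 without them, and that of Top2a, the topoisomerase that untangles chromosomes, was -0.36 ± 0.22 or -0.16 ± 0.19.

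Within each genotype most estimates were again below 0. In wt/null 20 of 21 replication genes (median -0.19) and 21 of 21 mitosis genes (median -0.33) had estimates below 0. In null/null the counts were 20 (median -0.21) and 21 (median -0.19). In wt/null the anti-TNF libraries lay wholly below the isotype libraries for 4 replication genes, Mcm2, Mcm6, Dnmt1 and Cdk6, and 0 mitosis genes, against 4.45% of all tested genes. In null/null this held for 5 replication genes, Mcm2, Mcm3, Mcm7, Dnmt1 and Cdk6, and 0 mitosis genes, against 4.55%. No member passed the edgeR test in either genotype, with percent called of 0% in both, 3 replication genes lower at an unadjusted p below 0.05 in each (against 1.68% and 1.54% of all tested genes), and 0 genes called by DESeq2 and limma voom. Without 40C1 in wt/null and 40C2 in null/null, the medians were -0.09 and -0.14 for replication genes and -0.09 and 0.08 for mitosis genes. In null/null 7 of 21 mitosis genes were then below 0, and 18 of 21 replication genes.

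Cdk6 in wt/null had the largest of these estimates among the replication genes, -0.63 ± 0.15 (edgeR adjusted p = 0.89), against -0.30 ± 0.15 in null/null (adjusted p = 0.95). Their difference, 0.32 ± 0.22, did not pass the interaction test (edgeR adjusted p = 1). Dnmt1 had -0.19 ± 0.06 in wt/null and -0.22 ± 0.06 in null/null, with a difference of -0.03 ± 0.09. For Mcm2 the estimates were -0.35 ± 0.16 and -0.49 ± 0.16, and for Mcm3 -0.18 ± 0.15 and -0.37 ± 0.15. With the pair left out, the estimates in wt/null and null/null were -0.51 and -0.21 for Cdk6, -0.19 and -0.20 for Dnmt1, -0.22 and -0.35 for Mcm2, and -0.12 and -0.25 for Mcm3.

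The second comparison asked whether loss of the interferon gamma receptor altered the same genes, and here the medians of replication and mitosis genes differed. Averaged over antibody, 21 of 21 mitosis genes had estimates below 0 in null/null, between -0.36 and -0.13 with a median of -0.24. Of the replication genes 13 of 21 were below 0, with a median of -0.03, and of all tested genes 49.9%, with a median of 0.00. Here too the genes share the same libraries, so 21 estimates on the same side are not 21 separate observations. The pooled SD within groups of the mean mitosis level was 0.44 log2 units. No member passed the edgeR test, and percent called was 0.0077%, the gene Ifngr1. No member had an unadjusted p below 0.05, against 1.18% of all tested genes lower and 1.28% higher, and 0 members were called by DESeq2 or limma voom. The pattern was much the same without 40C1 and 40C2, with 21 of 21 mitosis genes (median -0.23) and 12 of 21 replication genes (median -0.04) below 0. Bub1 (-0.34 ± 0.15) and Cdc20 (-0.34 ± 0.15) then had unadjusted p of 0.041 and 0.044 (edgeR adjusted p = 1), against 1.23% of all tested genes lower, and percent called was 0.00766%. In no member did the 6 null/null libraries separate from the 6 wt/null libraries, against 0.123% of all tested genes lower.

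**Figure D5:**
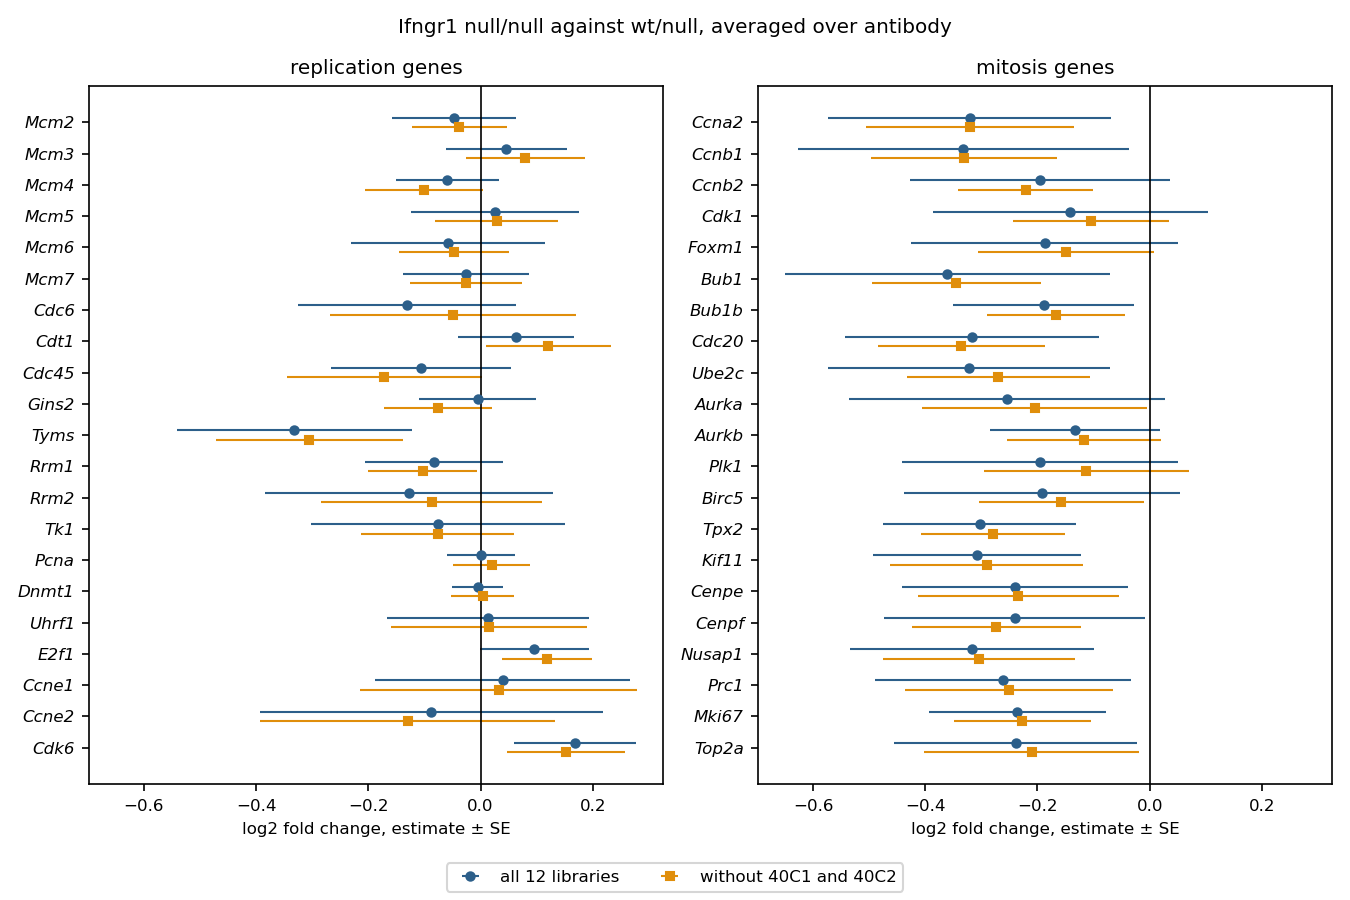
Log2 fold change of null/null against wt/null, averaged over antibody, for each gene, with its standard error, from all 12 libraries (circles) and without 40C1 and 40C2 (squares). All mitosis genes lie left of 0 in both fits, with medians of -0.24 and -0.23, while the replication genes scatter around 0, with medians of -0.03 and -0.04.

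The smallest p among the members were those of Tpx2 (-0.30 ± 0.17), Kif11 (-0.31 ± 0.19) and Tyms (-0.33 ± 0.21), each with an edgeR adjusted p of 1, and they stood at -0.28, -0.29 and -0.31 without the pair. Tyms is a replication gene, and it and the other 3 genes of nucleotide synthesis were below 0, with a median of -0.11. The helicase genes had a median of -0.04, and Pcna, Dnmt1 and Uhrf1 lay between -0.01 and 0.01. The intervals were narrow for Dnmt1 (-0.10 to 0.09) and Pcna (-0.13 to 0.13) and wide for Cdk1 (-0.68 to 0.40). Cdk6 and E2f1 were above 0, at 0.17 ± 0.11 and 0.10 ± 0.10.

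Under isotype antibody, 21 of 21 mitosis genes were below 0 in null/null (median -0.33), and 9 of 21 replication genes (median 0.01). Cdc20 (-0.49 ± 0.32), Tpx2 (-0.37 ± 0.24) and Nusap1 (-0.45 ± 0.31) had the smallest p, with edgeR adjusted p of 1. Leaving out 40C1 and 40C2, which enter only through the shared spread, the estimates were the same and 4 mitosis genes had an unadjusted p below 0.05 (against 1.55% of all tested genes lower), among them Cdc20 at 0.024 and Tpx2 at 0.041. Levels of Cdc20, Tpx2 and Nusap1 overlapped between the genotypes, as given above, with wt/null isotype replicate 1 the lowest of its group. Those of Cdk1 overlapped even with that library set aside. The mitosis median ran from -0.51 without wt/null isotype replicate 1 to -0.19 without wt/null isotype replicate 3. With the latter left out, 17 of 21 mitosis genes were below 0, so the size depended on single libraries. Under anti-TNF, 21 of 21 mitosis genes (median -0.18) and 14 of 21 replication genes (median -0.05) were below 0. The smallest p there were those of Cdk6, which was higher in null/null (0.33), and of Tyms (-0.47) and Cdc45 (-0.24), which were lower. Without null/null anti-TNF replicate 1 (40C2) alone, 3 of 21 mitosis genes were below 0 and their median was 0.10. Without both 40C1 and 40C2 it was 20 of 21 with a median of -0.14, so the direction under anti-TNF depended on which of the pair was kept. No member passed the edgeR test under either antibody, where percent called was 0.0077% (0 members at an unadjusted p below 0.05, against 0.863% and 1.17% of all tested genes lower).

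The third comparison, the interaction, asked whether the antibody effect differed between the genotypes. Of the mitosis genes 2 of 21 had an estimate below 0, with a median of 0.14, and of the replication genes 14 of 21, with a median of -0.03. No member passed the edgeR test, percent called was 0%, 0 members had an unadjusted p below 0.05 (against 1.51% of all tested genes), and DESeq2 and limma voom called 0 genes. The mitosis median ran from -0.14 without null/null anti-TNF replicate 3 to 0.38 without null/null anti-TNF replicate 1, so its direction depended on single libraries. The smallest p were those of Cdk6, Ccne1 (-0.42 ± 0.45) and Mcm3 (-0.19 ± 0.22). With 40C1 and 40C2 left out, 2 of 21 mitosis and 12 of 21 replication genes were below 0, with medians of 0.19 and -0.01.

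Other genes of the cycle, listed by function, were tested in the same fit. For the antibody averaged over genotype, 37 of 48 other replication genes (polymerases, origin and fork proteins) were below 0 with a median of -0.07, and 49 of 53 other mitosis genes with a median of -0.21. Without 40C1 and 40C2 the medians were -0.06 and -0.02, with 32 of 48 and 32 of 53 below 0. No gene of these lists passed the edgeR test, and 2 replication genes were lower and 1 higher at an unadjusted p below 0.05, against 3.24% of all tested genes lower and 4.08% higher. Pold2, a subunit of DNA polymerase delta, had the smallest p, with an estimate of -0.23 ± 0.09 (edgeR adjusted p = 0.66). For the genotype averaged over antibody, 41 of 48 other replication genes (median -0.08) and 48 of 53 other mitosis genes (median -0.19) were below 0. Aspm, a spindle pole protein, had an estimate of -0.43 ± 0.20 (edgeR adjusted p = 1). For the genotype, the median lay farther from 0 in mitosis than in replication genes both among the members and among the other listed genes, which share the same libraries.

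Of 12 Cdk inhibitors and p53 targets, 3 had antibody estimates below 0, with a median of 0.22, against 48.4% and a median of 0.01 for all tested genes, and 0 passed the edgeR test. With the pair left out, 1 of 12 was below 0 and the median was 0.13. Cdkn2d (p19 INK4d, an inhibitor of Cdk4 and Cdk6) stood at 0.30 ± 0.10 and Cdkn1b (p27) at 0.31 ± 0.11, both with an edgeR adjusted p of 0.66, and at 0.17 and 0.20 without the pair. Of the D cyclins, their kinases and pocket proteins 2 of 8 were below 0 (median 0.07). Ccnd2, cyclin D2, stood at 0.49 ± 0.25 and at 0.04 without the pair. Of the E2F family 4 of 7 were below 0 (median -0.06), and of the macrophage growth signals, such as Csf1r and Myc, 6 of 10 (median -0.04). For the genotype, the medians of these 4 lists lay between -0.05 and 0.08. Of their genes 1, E2f2, had an unadjusted p below 0.05, at -0.21 ± 0.10 (edgeR adjusted p = 1). This compares with 1.18% of all tested genes lower and 1.28% higher.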

How the data were processed

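Messenger RNA of 12 sorted samples in 4 groups of 3 was sequenced. The authors' deposited table holds counts per gene symbol, whole numbers that are not normalized, and its 12 columns were matched to samples by title. The submitters' processing notes name bcl2fastq 2.20, STAR, Bowtie and mm10. The counting tool, strand setting and annotation are not given in the sources used here. In RefSeq (GRCm38.p6) 17 of the 42 members overlap another gene, so reads of such neighbours may be shared.

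Genes were kept by filterByExpr and scaled by TMM, and 4 group means were fitted to all 12 samples with robust edgeR 4.0.16 quasi-likelihood models (R 4.3.3). The biological coefficient of variation was 0.179. All 7 comparisons were two-sided, with Benjamini-Hochberg adjustment over 12981 genes, or 13061 without 40C1 and 40C2, and genes were called at an adjusted p below 0.05. A prior count of 2 entered log2 CPM. Levels compare libraries, not genes. The edgeR model was run on simulated counts with 200 changed genes, the same spread for all genes and no divergent libraries. That run does not show how the model handles 40C1 and 40C2. The members and lists were chosen with earlier results of these data known. Of 268 listed genes 267 were in the table, 2 under an older symbol.

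Values in every library are given for the members with the highest mean log2 CPM and the smallest antibody p in each of 9 roles, and for the 3 smallest p of each other comparison. Of the other lists the smallest p is named. Genes named beyond this were chosen after their values were seen. Alternatives were DESeq2 1.42.0, limma 3.58.1 voom with quality weights, a stricter filter (1 CPM in 3 samples), no filter, relative log expression scaling, the title number as a block, no 40C1 and 40C2, and each library left out. DESeq2 without 40C1 and 40C2 was added after the data were seen. Promoters came from RefSeq windows, with principal starts from GENCODE. No sequence was read from the samples.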

Additional observations from a re-analysis of the deposited data

How the results depend on the processing

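No paired analysis was possible because replicate numbers were given in listing order and pair nothing. The title number (40 or 46), whose meaning is not given, was fitted as a block instead, with 1 library titled 46 in each group. With it the antibody medians were -0.25 for replication and -0.27 for mitosis genes, the genotype medians -0.02 and -0.24, and no member was called. Among the libraries titled 46, the mitosis level under isotype was 4.33 log2 CPM in wt/null and 3.79 in null/null, and under anti-TNF it was 3.93 and 3.96, with no replicates.

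Calls depended on the tool. With DESeq2, genes called numbered 6 for the antibody averaged over genotype (1 of them the member Dnmt1), 4 for the genotype averaged over antibody, 2 under isotype and 2 under anti-TNF, where edgeR called 0, 1, 1 and 1. Without 40C1 and 40C2, DESeq2 called 3, 14, 8 and 2 genes in these comparisons and 1 for the antibody in null/null, with 0 members in each. Without 40C1 and 40C2 and with the block, edgeR called 1 gene for the antibody, not a member. The causes were not tested.

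Directions of small antibody estimates reversed without 40C1 and 40C2: Pcna to 0.0016, E2f1 to 0.030 and Tpx2 to 0.080. With the block added they were 0.017, 0.016 and 0.045, and with DESeq2 E2f1 stood at 0.028 and Tpx2 at 0.079. Pcna also crossed 0 when single libraries were left out, with a range of -0.046 to 0.0085. Over the same omissions the antibody median ran from -0.33 to -0.18 for replication and from -0.37 to -0.11 for mitosis genes, and the genotype median from -0.10 to 0.03 and from -0.38 to -0.14. Dnmt1 stayed between -0.21 and -0.20.

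With 3 libraries a group, the biological coefficient of variation was 0.179, or 0.141 without 40C1 and 40C2. The 95% intervals of all 21 mitosis genes included 0 for the antibody and for the genotype (each averaged over the other factor, all libraries), so absence of a call does not show absence of a difference.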
